A study of Mus musculus with 10 samples.

Results

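The genes that surround Ctcf on mouse chromosome 8 were followed in heart muscle cells that had lost much of their Ctcf mRNA. All gene IDs whose start lay within 1 Mb of the Ctcf gene body (mm10, chr8:105636568-105682922, plus strand) were taken, with Ctcf left out, which gave 91 neighbouring genes of 45882 gene IDs. Of the 91, 68 were protein-coding, 47 lay on the low-coordinate side of Ctcf, 41 lay on the high-coordinate side and 3 overlapped its gene body. RNA came from isolated cardiac myocytes of the left ventricle of adult C57BL/6 mice, with 4 CTCF knockout libraries, 3 TAC libraries (transverse aortic constriction, in which surgery narrows the aorta and the left ventricle pumps against pressure) and 3 control libraries, each with a mouse number of its own. The labels name no Cre driver, no floxed allele and no age in weeks for the knockout or the control mice, and no genotype or duration for the TAC mice. Levels are given as FPKM, a measure corrected for transcript length and library size, summed over the transcripts of a gene and rescaled between libraries.

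CTCF recognises a long DNA motif with its zinc fingers and, where it meets the ring complex cohesin, stops the growth of chromatin loops. Many borders of the domains into which chromosomes fold, and many insulators between an enhancer and a neighbouring gene, are CTCF sites. The stretch around Ctcf itself is rich in genes: a cluster of carboxylesterases lies at its low end, cadherins lie at its high end, and genes with unrelated housekeeping tasks lie between.

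The DNA in front of the start was read from RefSeq (GRCm38.p6) for 2 of the genes called below and for the gap between Gm38250 and Atp6v0d1, which are read in opposite directions. These 3 were chosen because they carry differences described below. No promoter entry was found for 4931428F04Rik, which is also called below, or for Carmil2. Capitals mark CCCTC, the short repeat after which CTCF was named, or GAGGG, the same word on the other strand. The Slc12a4 stretch is chr8:105966116-105966365 on the minus strand, the Zdhhc1 stretch is chr8:105497063-105497312 on the minus strand, and the stretch between the starts of Atp6v0d1 and Gm38250 is chr8:105566065-105566179 on the plus strand.
Slc12a4: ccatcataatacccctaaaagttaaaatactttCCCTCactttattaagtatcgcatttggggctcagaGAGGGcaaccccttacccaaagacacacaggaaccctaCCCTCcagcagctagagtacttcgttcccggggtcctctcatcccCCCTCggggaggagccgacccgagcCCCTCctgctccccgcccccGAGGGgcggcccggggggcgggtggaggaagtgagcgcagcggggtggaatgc
Zdhhc1: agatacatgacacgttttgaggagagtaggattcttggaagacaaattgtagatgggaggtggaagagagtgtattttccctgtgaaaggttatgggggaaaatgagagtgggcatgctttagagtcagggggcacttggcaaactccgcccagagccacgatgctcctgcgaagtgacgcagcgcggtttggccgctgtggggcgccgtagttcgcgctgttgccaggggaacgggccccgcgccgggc
Gm38250: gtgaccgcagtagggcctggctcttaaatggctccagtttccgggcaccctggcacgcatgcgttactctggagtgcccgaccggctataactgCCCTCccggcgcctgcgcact
The word stood 6 times before Slc12a4, 0 times before Zdhhc1 and 1 time in the gap before Gm38250. Across the 250 bases before each start, counted on both strands, CCCTC was present in 71.2% of 52 promoters of the neighbours and in 60.5% of all 32851 promoters of the RefSeq table, so most promoters of either kind hold it. The core of the CTCF motif, searched on both strands as a longer word with free positions, was present in 1.92% of the neighbours' promoters and in 2.07% of all promoters. These are matches of letters and not measured binding sites. The RefSeq start of Zdhhc1, beside position 105497063, lies upstream of the gene end that the deposited files give at position 105484350. These files end Atp6v0d1 at position 105566047 and start Gm38250 at position 105566324, so the printed stretch is only part of the gap between them there.

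Ctcf was lower in the knockout, as its label says. It stood at 2.90, 4.01, 2.60 and 4.42 FPKM in the knockout libraries, at 7.32, 5.70 and 5.22 FPKM in the TAC libraries and at 8.81, 8.34 and 6.80 FPKM in the control libraries. Every knockout library lay below every TAC and every control library. The log2 fold change against control was -1.02 (limma, adjusted p = 0.00136), and that of TAC against control was -0.35 (limma, adjusted p = 0.201). The fit covered 11358 genes with a mean of at least 1 FPKM. Libraries summed to between 582496 and 823272 FPKM over 58663 to 64693 transcripts above 0. Each group held libraries of both sexes, read here from Xist and Y-linked genes because the labels give none: 1 of 4 knockout, 2 of 3 TAC and 1 of 3 control libraries were male. The labels give reads of 100 nt and the same average of 50 M raw read pairs for every library. No read count of a single library is listed, so the exact depth of each is unknown. The markers of myocytes summed to 24200 to 32400 FPKM in the knockout, 25500 to 32700 FPKM in TAC and 29500 to 32600 FPKM in control libraries, sums carried by a few very abundant genes, and 3 of the 8 were called lower and 1 higher in the knockout against control. Ryr2, the calcium release channel, was at 65.5 to 116 FPKM in the knockout, 159 to 248 FPKM in TAC and 158 to 308 FPKM in control. Actn2, another of these markers, went the other way, at 626 to 746 FPKM in the knockout, 764 to 867 FPKM in TAC and 470 to 525 FPKM in control.

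Of the 91 neighbours, 31 reached the mean of 1 FPKM and the minimum length of 300 nt and were tested, all of them protein-coding, 14 on the low side and 17 on the high side. In the knockout, 3 of the 31 rose against control (Slc12a4, Zdhhc1 and 4931428F04Rik) and 0 fell, by limma at an adjusted p under 0.05. At an unadjusted p under 0.05, 5 were higher and 1 was lower, against 1926 higher and 1906 lower of all 11358 tested genes. The 3 calls are 9.68% of the tested neighbours, while 20.8% of all tested genes were called in this comparison, 10.6% higher and 10.2% lower. The share called higher among the neighbours was therefore near that of all genes. The median log2 fold change of the 31 was 0.02, against -0.01 over all tested genes, and the median size of a change, whatever its sign, was 0.10, against 0.20 over all tested genes. For 29 of the 31 the 95% interval of the fold change stayed within 2-fold in either direction (93.5%, against 89.5% of all tested genes), Slc12a4 and Gm10073 being the exceptions. Knockout and control libraries did not overlap for 5 higher and 3 lower genes (25.8%, against 30.8% of all tested genes).

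**Figure D1:**
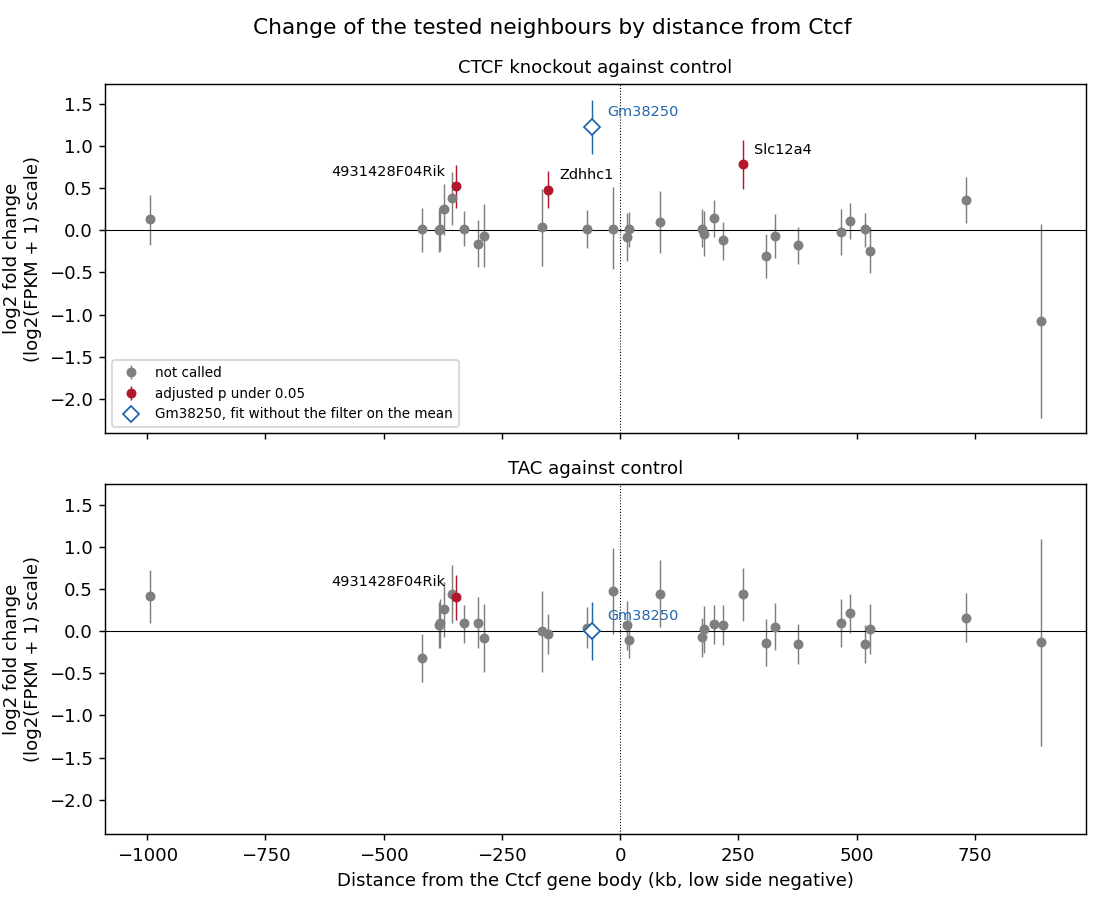
Log2 fold change of the 31 tested neighbours (vertical axis, log2(FPKM + 1) scale, bars are 95% intervals) against their distance from the Ctcf gene body in kb (horizontal axis, low side negative), for CTCF knockout against control (upper panel) and TAC against control (lower panel). Red points passed an adjusted p of 0.05 and the blue diamond is Gm38250 from the fit without a filter on the mean; the 5 tested genes within 100 kb sit between -0.08 and 0.10 in the upper panel.

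Of the 10 tested genes of transport and metabolism, 2 were called higher in the knockout and 0 lower, a share of 20% beside the 20.8% of all tested genes. Slc12a4 (ENSMUSG00000017765, chr8:105943590-105966115, minus strand, 260.7 kb above Ctcf) encodes the potassium-chloride cotransporter KCC1, which moves salt out of cells and takes part in volume control. Its level was 18.9, 21.1, 19.5 and 18.0 FPKM in knockout libraries, 14.6, 16.2 and 14.3 FPKM in TAC libraries and 13.0, 11.8 and 8.26 FPKM in control libraries. The 3 groups did not overlap, with the knockout highest and control lowest. The mean was 19.4 ± 1.33 FPKM in the knockout (SD, n = 4), against 11.0 ± 2.47 FPKM in control (SD, n = 3), a ratio of 1.76. The log2 fold change was 0.78 with a 95% interval of 0.49 to 1.07 (limma, adjusted p = 0.00222). The mean in TAC was 15.0 ± 1.06 FPKM (SD, n = 3), and the log2 fold change of TAC against control, 0.44, missed the threshold (limma, adjusted p = 0.0613). It passed with no rescaling (limma, adjusted p = 0.0331) and without control library 1 (limma, adjusted p = 0.0283). Its main transcript carried 75.4% of the gene's FPKM in the knockout, 83.4% in TAC and 72.5% in control on average, and it was the same transcript in every library.

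Zdhhc1 (ENSMUSG00000039199, chr8:105472481-105484350, minus strand, 152.2 kb below Ctcf) encodes a palmitoyltransferase, an enzyme that attaches a fatty acid to proteins. It stood at 5.48, 4.83, 5.48 and 4.92 FPKM in knockout libraries, at 3.36, 3.46 and 3.06 FPKM in TAC libraries and at 3.40, 3.87 and 2.99 FPKM in control libraries. Every knockout library was above every other library, while TAC and control overlapped. The mean of 5.18 ± 0.350 FPKM in the knockout (SD, n = 4) was 1.51 times the 3.42 ± 0.439 FPKM of control (SD, n = 3). The log2 fold change was 0.48 with an interval of 0.27 to 0.70 (limma, adjusted p = 0.00584). The log2 fold change of TAC against control was -0.04, with an interval of -0.27 to 0.20.

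The other 8 tested genes of transport and metabolism were not called in the knockout. Ciao2b, which helps load iron-sulfur clusters onto proteins, had the highest mean of the 31 and averaged 17.9 ± 1.44 FPKM in the knockout (SD, n = 4) against 16.5 ± 3.04 FPKM in control (SD, n = 3). Atp6v0d1, a subunit of the proton pump of lysosomes, averaged 11.2 ± 0.727 FPKM in the knockout (SD, n = 4) and 11.1 ± 1.01 FPKM in control (SD, n = 3). Nutf2, which carries the small GTPase Ran into the nucleus, averaged 13.0 ± 1.40 FPKM in the knockout (SD, n = 4) and 13.4 ± 2.03 FPKM in control (SD, n = 3). Of the 50-base words in its transcripts, 39.1% also occur in other genes, so its level is uncertain. Tmem208, a protein of the endoplasmic reticulum, averaged 9.96 ± 1.47 FPKM in the knockout (SD, n = 4) and 11.2 ± 1.67 FPKM in control (SD, n = 3). Tmem208 had a log2 fold change of -0.16. Dus2, an enzyme that modifies transfer RNA, was at 2.08 to 2.96 FPKM in the knockout and 3.20 to 3.66 FPKM in control. Its libraries did not overlap, but its log2 fold change of -0.30 missed the threshold (limma, adjusted p = 0.101).

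**Figure D2:**
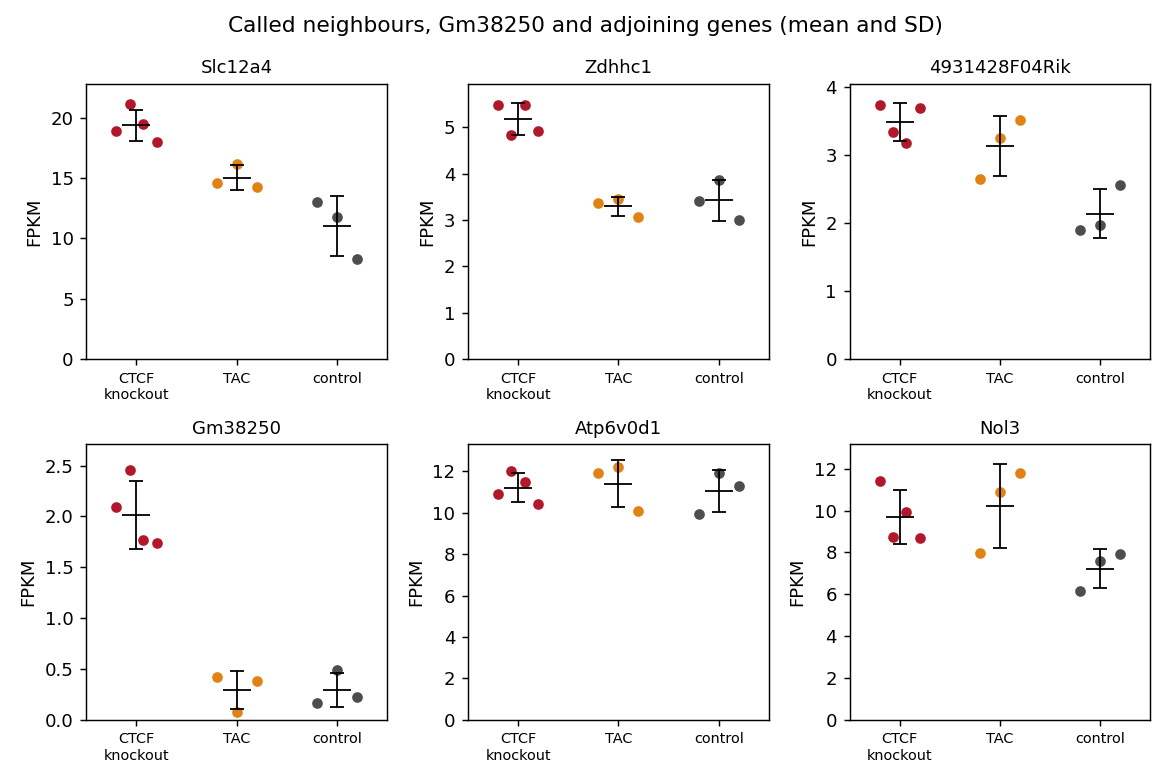
FPKM of each library (points) with the group mean and SD (bars) for CTCF knockout, TAC and control, for the 3 called neighbours, Gm38250, Atp6v0d1, which starts beside Gm38250, and Nol3, which overlaps 4931428F04Rik. The 4 knockout libraries lie above the 3 control libraries for Slc12a4, Zdhhc1, 4931428F04Rik, Gm38250 and Nol3 and mix with them for Atp6v0d1.

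The third called gene, 4931428F04Rik (ENSMUSG00000014837, chr8:105280410-105289528, minus strand, 347.0 kb below Ctcf), shares exons with Nol3 on the other strand. It stood at 3.73, 3.34, 3.17 and 3.69 FPKM in knockout libraries, at 2.65, 3.25 and 3.51 FPKM in TAC libraries and at 1.89, 1.97 and 2.55 FPKM in control libraries. All knockout and all TAC libraries lay above all control libraries. The mean was 3.48 ± 0.271 FPKM in the knockout (SD, n = 4) and 2.14 ± 0.357 FPKM in control (SD, n = 3). This is a log2 fold change of 0.52 with an interval of 0.27 to 0.77 (limma, adjusted p = 0.00829). Nol3, an inhibitor of cell death known as ARC that is abundant in heart and skeletal muscle, covers 1530 exon bases of 4931428F04Rik, 43.1% of its exons. Nol3 stood at 11.4, 8.75, 9.94 and 8.68 FPKM in knockout libraries, at 7.95, 10.9 and 11.8 FPKM in TAC libraries and at 6.16, 7.57 and 7.94 FPKM in control libraries. Its log2 fold change against control was 0.38 in the knockout (limma, adjusted p = 0.0862) and 0.44 in TAC (limma, adjusted p = 0.0757), both short of the threshold. The library kit keeps the strand of the RNA, but whether the counting used it is not stated, so reads of the 2 genes may not have been told apart.

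The other death and stress signalling genes gave no call. Tradd, the adaptor of the tumour necrosis factor receptor, was at 1.01 to 1.60 FPKM in the knockout and 0.600 to 1.23 FPKM in control. The kinase gene Pskh1 was at 5.32 to 5.88 FPKM in the knockout and 5.92 to 6.57 FPKM in control, without overlap, but its log2 fold change was only -0.12 (limma, adjusted p = 0.440).

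None of the 9 tested genes of transcription and chromatin was called in the knockout (limma, 1 at an unadjusted p under 0.05), and their log2 fold changes ran from -0.24 to 0.36. E2f4, a repressor of cell cycle genes, had a log2 fold change of 0.02, Thap11, a zinc finger factor, one of 0.02 and Cbfb, the partner of RUNX factors, one of 0.01. Nfatc3, a factor switched on by calcineurin, was at 3.18 to 3.81 FPKM in the knockout and 3.92 to 4.15 FPKM in control, without overlap and with a log2 fold change of -0.18 (limma, adjusted p = 0.226). Zfp90, a zinc finger gene 732.4 kb above Ctcf, had 1.27 to 1.62 FPKM in the knockout and 0.707 to 1.13 FPKM in control. Its log2 fold change of 0.36 missed the threshold (limma, adjusted p = 0.0632), and 72.6% of its exon bases are shared with Gm26786 on the other strand.

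The 5 tested genes of cell surface and cytoskeleton gave no call in the knockout either (limma, 0 at an unadjusted p under 0.05). Their log2 fold changes ran from -0.07 for the formin Fhod1 to 0.04 for the tubulin-binding protein Tppp3. The classical cadherins at the high end were close to 0: Cdh1 (E-cadherin) had a mean of 0.0138 FPKM in the knockout, 0.0425 FPKM in TAC and was listed at 0 in all 3 control libraries.

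The 5 tested genes within 100 kb of Ctcf differed little between knockout and control. On the low side, Ripor1, a regulator of cell polarity 14.4 kb away, was at 2.28 to 4.02 FPKM in the knockout and 2.24 to 4.24 FPKM in control, with a log2 fold change of 0.02 and an interval of -0.46 to 0.51. Atp6v0d1, 70.5 kb away, had a log2 fold change of 0.02 with an interval of -0.21 to 0.24. On the high side, Acd, which encodes the telomere protein TPP1 and lies 15.2 kb away, was at 1.41 to 2.19 FPKM in the knockout and 1.77 to 2.32 FPKM in control. Acd had a log2 fold change of -0.08 with an interval of -0.36 to 0.20. The polarity gene Pard6a, 18.2 kb away, had a log2 fold change of 0.01 with an interval of -0.20 to 0.22. Ranbp10, a Ran-binding protein gene 85.4 kb away, had one of 0.10 with an interval of -0.27 to 0.47. Knockout and control libraries overlapped for all 5.

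**Figure D3:**
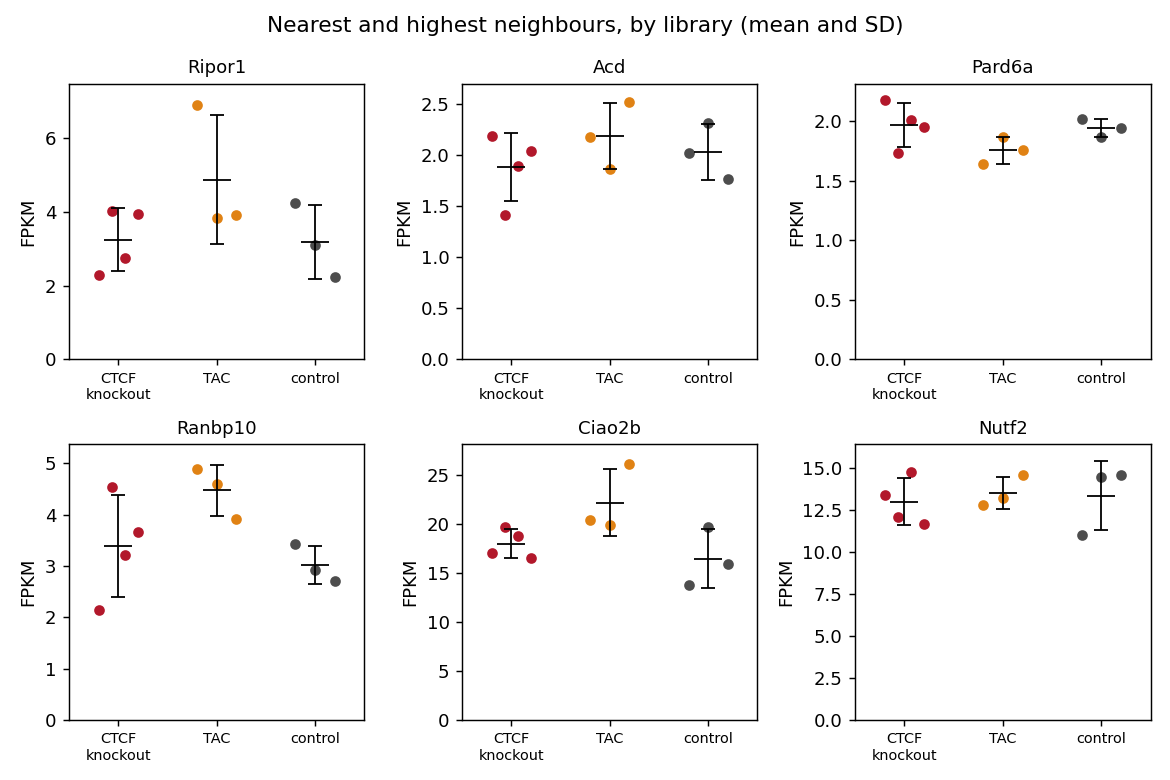
FPKM of each library (points) with the group mean and SD (bars) for CTCF knockout, TAC and control, for 4 of the tested genes nearest to Ctcf (Ripor1, Acd, Pard6a, Ranbp10) and 2 of the most abundant neighbours (Ciao2b, Nutf2). Knockout and control points overlap in all 6 panels, while the TAC points lie above the control points for Ranbp10 and Ciao2b.

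By distance, 0 of 5 tested genes within 100 kb of Ctcf were called in the knockout (limma, 0 at an unadjusted p under 0.05), 1 of 6 between 100 and 250 kb, 2 of 15 between 250 and 500 kb and 0 of 5 between 500 and 1000 kb. The median size of the log2 change was 0.02, 0.08, 0.11 and 0.24 in these 4 ranges. Over all tested genes it was 0.20, and 20.8% of them were called. Gm38250 and Carmil2 also lie within 100 kb but fell short of the mean of 1 FPKM, so they are not among the 5; both were called higher in the fit without a filter on the mean. Across the 31 genes, the Spearman correlation of the size of the change with the distance was 0.16 (0.04 to 0.34 with a library left out), and that of the signed change with the signed distance was -0.33, both descriptions over genes that share the same libraries. The farthest range holds Gm10073, at 2.78, 11.7, 13.6 and 1.31 FPKM in knockout libraries and 10.5, 12.3 and 14.6 FPKM in control libraries. Its log2 fold change was -1.07 with an interval of -2.22 to 0.07, and 61.1% of its 50-base words occur in other genes, so its level is uncertain. Beyond the window, 2 of 25 genes with a start 1 to 2 Mb from Ctcf were called in the knockout, both higher (8%). Of 523 tested genes on the rest of chromosome 8, 65 were higher and 44 lower (20.8%).

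Another 51 neighbours fell short of the mean of 1 FPKM and 9 had no transcript of 300 nt or more. Of the 51, 9 were listed at 0 in every library and 29 had a mean under 0.1 FPKM. Among the 42 above 0 somewhere, 5 had every knockout library above every control library (Fbxl8, Exoc3l, Gm38250, Carmil2 and Dpep2) and 0 had the reverse. For TAC against control, 4 had every TAC library above every control library (Fbxl8, Cenpt, Dpep2 and Cdh1) and 0 had the reverse. Over all 14991 genes with a mean under 1 FPKM and a level above 0 somewhere, 5.18% were higher and 4.08% lower in this way in the knockout, and 5.74% were higher and 5.44% lower in TAC.

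Gm38250 (ENSMUSG00000104168, chr8:105566324-105578109, plus strand, 58.5 kb below Ctcf) missed the filter narrowly, with a mean of 0.983 FPKM over all libraries that rests mostly on the knockout libraries. GENCODE lists it as an antisense RNA. It shares no exon bases with other genes and, compared on the transcribed strand only, no 50-base words. Most of its gene body lies within that of Agrp (chr8:105566698-105637393, minus strand). Gm38250 starts back to back with Atp6v0d1, and the DNA printed above lies between their RefSeq starts. It stood at 2.09, 2.46, 1.77 and 1.74 FPKM in knockout libraries, at 0.425, 0.0790 and 0.383 FPKM in TAC libraries and at 0.168, 0.485 and 0.220 FPKM in control libraries. Every knockout library was far above every TAC and control library, which overlapped with each other. The mean was 2.02 ± 0.336 FPKM in the knockout (SD, n = 4) and 0.291 ± 0.170 FPKM in control (SD, n = 3), a ratio of 6.94. In a fit of 26349 genes without a filter on the mean, its log2 fold change was 1.23 with an interval of 0.91 to 1.55 (limma, adjusted p = 0.00174). In that fit 3.87% of all genes were called higher in the knockout. Against TAC, at 0.296 ± 0.189 FPKM (SD, n = 3), the log2 fold change in the knockout was 1.22 (limma, adjusted p = 0.0157), in a comparison where 0.353% of all genes were called higher. The difference between TAC and control was 0.00 on the same scale, with an interval of -0.34 to 0.34. With each of the 10 libraries left out in turn the knockout call held 10 times against control and 10 times against TAC. Gm38250 was singled out after its values were seen. Atp6v0d1, its neighbour in the other direction, gave 10.9, 12.0, 11.5 and 10.4 FPKM in the knockout and 9.94, 11.9 and 11.3 FPKM in control.

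Carmil2, a regulator of actin capping known from T cells, is the nearest gene on the high side, 8.0 kb from Ctcf (ENSMUSG00000050357, chr8:105690906-105698178, plus strand). It was listed at 0.0749, 0.0999, 0.115 and 0.0522 FPKM in knockout libraries, at 0, 0.0205 and 0 FPKM in TAC libraries and at 0 in all 3 control libraries. It was above 0 in every knockout library, at levels far under the 1 FPKM of the filter. At such levels the fitted log2 fold change follows the pseudocount (0.12 with 1 FPKM added and 0.88 with 0.1 FPKM added). In the fit without the filter it was called against control (limma, adjusted p = 0.00933), whose 3 libraries are all at 0, and not against TAC (limma, adjusted p = 0.0536). Dpep2, a membrane dipeptidase gene, averaged 0.487 FPKM in the knockout, 0.607 FPKM in TAC and 0.227 FPKM in control. Without the filter it was the 1 neighbour called for TAC against control (limma, log2 fold change 0.39, adjusted p = 0.0285), where 2.69% of all genes were called higher. The 3 genes that overlap the Ctcf gene body were low everywhere: Agrp, a brain neuropeptide gene, averaged 0.0429 FPKM in the knockout and 0.130 FPKM in control, the non-coding Gm5914 averaged 0.0655 FPKM in the knockout and was listed at 0 in control, and the pseudogene Gm5915 averaged 0.237 FPKM in the knockout and 0.398 FPKM in control.

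The 11 carboxylesterase genes of the window, enzymes that split esters and are best known from liver and gut, were low in all groups. Their means over all libraries ran from 0 to 0.406 FPKM, 4 of the 11 were at 0 in every library and 0 of the 11 were tested. Ces2g was at 0.314 to 0.547 FPKM in the knockout and 0.238 to 0.401 FPKM in control, with overlap. Ces1d, a carboxylesterase of another cluster on chromosome 8 outside the window, averaged 5.62 ± 2.73 FPKM in the knockout (SD, n = 4), 12.8 ± 4.63 FPKM in TAC (SD, n = 3) and 104 ± 29.4 FPKM in control (SD, n = 3). It fell in the knockout by 4.07 on the log2 scale (limma, adjusted p = 2.94e-05). In TAC it fell too, with a log2 fold change of -2.95 (limma, adjusted p = 0.000417). The difference of -1.12 between knockout and TAC was not called (limma, adjusted p = 0.0991). The 15 hepatocyte markers, none of them at 0 in all libraries, summed to 2.05 to 5.98 FPKM in the knockout, 3.17 to 5.22 FPKM in TAC and 9.95 to 15.0 FPKM in control. Of these markers 3 were tested, with 1 called lower in the knockout, 2 called lower in TAC and 0 called higher. Alb was at 0 to 0.0219 FPKM in the knockout and 3.49 to 4.15 FPKM in control, while Apoa2, Ahsg and Ttr overlapped between these groups. The part of these markers in the level of Ces1d was not tested.

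Some markers of other cells were higher in the same knockout libraries as Slc12a4, Zdhhc1 and 4931428F04Rik, and no marker of the lists given here was at 0 in every library. The 6 endothelial markers summed to 52.0 to 99.4 FPKM in the knockout, 63.0 to 92.3 FPKM in TAC and 44.3 to 59.9 FPKM in control, and 2 of the 6 were called higher in the knockout. The 5 macrophage markers summed to 15.2 to 23.4 FPKM in the knockout, 17.7 to 20.9 FPKM in TAC and 10.3 to 15.5 FPKM in control, with 2 called higher in the knockout. The 6 epithelial markers summed to 4.42 to 5.91 FPKM in the knockout, 3.37 to 8.06 FPKM in TAC and 1.74 to 3.15 FPKM in control, with 1 called higher in the knockout. Krt18 was the largest part of the knockout sums, at 2.87 to 3.76 FPKM, against 0.523 to 1.24 FPKM in control. Cldn7 was at 0.0867 to 0.229 FPKM in the knockout and at 0 in control, while Krt8, Krt19 and Epcam overlapped between these groups. The 6 fibroblast markers summed to 72.3 to 124 FPKM in the knockout, 96.6 to 103 FPKM in TAC and 56.8 to 109 FPKM in control, with 1 called higher in the knockout. Knockout and control sums overlapped for the endothelial, macrophage and fibroblast markers. The 4 mesothelial markers overlapped as well, with sums of 3.61 to 9.43 FPKM in the knockout and 4.85 to 7.13 FPKM in control and 0 called. So did the 5 lymphocyte markers, at 0.389 to 0.668 FPKM in the knockout and 0.258 to 0.781 FPKM in control, with 0 tested. The part of these cell types in the neighbours' levels was not tested, and in bulk RNA fewer cells of a type and less RNA per cell cannot be told apart.

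After TAC, 1 of the 31 tested neighbours, 4931428F04Rik, rose against control and 0 fell (limma, 5 higher and 1 lower at an unadjusted p under 0.05). That is 3.23%, while 15.5% of all tested genes were called, 8.08% higher and 7.37% lower. At an unadjusted p under 0.05 by limma, 1732 of all 11358 tested genes were higher and 1676 lower. In TAC, 4931428F04Rik had a log2 fold change of 0.40 (limma, adjusted p = 0.0462), and the call was lost in 16 of 20 other settings, where the adjusted p ran from 0.0314 to 0.145. The median size of a change was 0.10 among the neighbours and 0.20 over all tested genes. Ranbp10 was at 4.90, 4.60 and 3.92 FPKM in TAC libraries and 3.43, 2.93 and 2.70 FPKM in control libraries. Its groups did not overlap, yet the log2 fold change of 0.44 missed the threshold (limma, adjusted p = 0.119). Ciao2b, at 20.4, 19.9 and 26.1 FPKM in TAC and 13.7, 19.7 and 15.9 FPKM in control, had a log2 fold change of 0.41 that missed it as well (limma, adjusted p = 0.0772) but passed without control library 2 (limma, adjusted p = 0.0351). Over the 31 genes, libraries of the 2 groups did not overlap for 6 higher and 2 lower genes, 25.8%, against 31.6% of all tested genes. The knockout and the TAC comparison use the same 3 control libraries.

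Set directly against TAC, 1 of the 31 neighbours, Zdhhc1, was higher in the knockout and 0 were lower (limma, 3 higher and 0 lower at an unadjusted p under 0.05). That is 3.23%, and 3.28% of all tested genes were called, 1.58% higher and 1.7% lower. At an unadjusted p under 0.05 by limma, 958 of all 11358 tested genes were higher and 1084 lower. The log2 fold change of Zdhhc1 was 0.52 with an interval of 0.30 to 0.74 (limma, adjusted p = 0.0189). The call was lost in 7 of 20 other settings, where the adjusted p ran from 0.0188 to 0.164, among them leaving out knockout library 1 or 3 or any of the 3 TAC libraries. Slc12a4 was higher in every knockout library than in every TAC library, but its log2 fold change of 0.34 was not called (limma, adjusted p = 0.201). Cbfb was at 5.12 to 6.48 FPKM in the knockout and 3.94 to 4.93 FPKM in TAC, without overlap and with a log2 fold change of 0.32 (limma, adjusted p = 0.187). Libraries of the 2 groups did not overlap for 3 higher genes (Cbfb, Zdhhc1, Slc12a4) and 1 lower gene (Ciao2b), 12.9% of the 31, against 18.1% of all tested genes. The 5 erythroid markers, genes of red blood cells, summed to 130 to 632 FPKM in the knockout, against 951 to 1680 FPKM in TAC, and 3 of the 5 were called lower in the knockout. Their part in this comparison was not tested.

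The neighbours were of moderate abundance. The 31 tested genes had a median of 4.09 FPKM over all libraries, against 5.99 FPKM over all tested genes, and ranged from 1.13 to 18.7 FPKM, with 15 at 5 FPKM or more. Ciao2b, Slc12a4, Nutf2, Atp6v0d1 and Tmem208 were the most abundant and lie on both sides of Ctcf. At the edges of the window, Ciao2b was the last tested gene inside the low end, and Rrad, a GTPase gene just outside it, averaged 104 ± 8.04 FPKM in the knockout (SD, n = 4), 95.2 ± 19.7 FPKM in TAC (SD, n = 3) and 74.7 ± 39.3 FPKM in control (SD, n = 3), with overlap between all groups. At the high end, Cdh1 lay just inside and Tango6, a gene of Golgi transport, just outside, at 1.42 FPKM in the knockout, 1.21 FPKM in TAC and 1.57 FPKM in control, likewise with overlap.

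**Figure D4:**
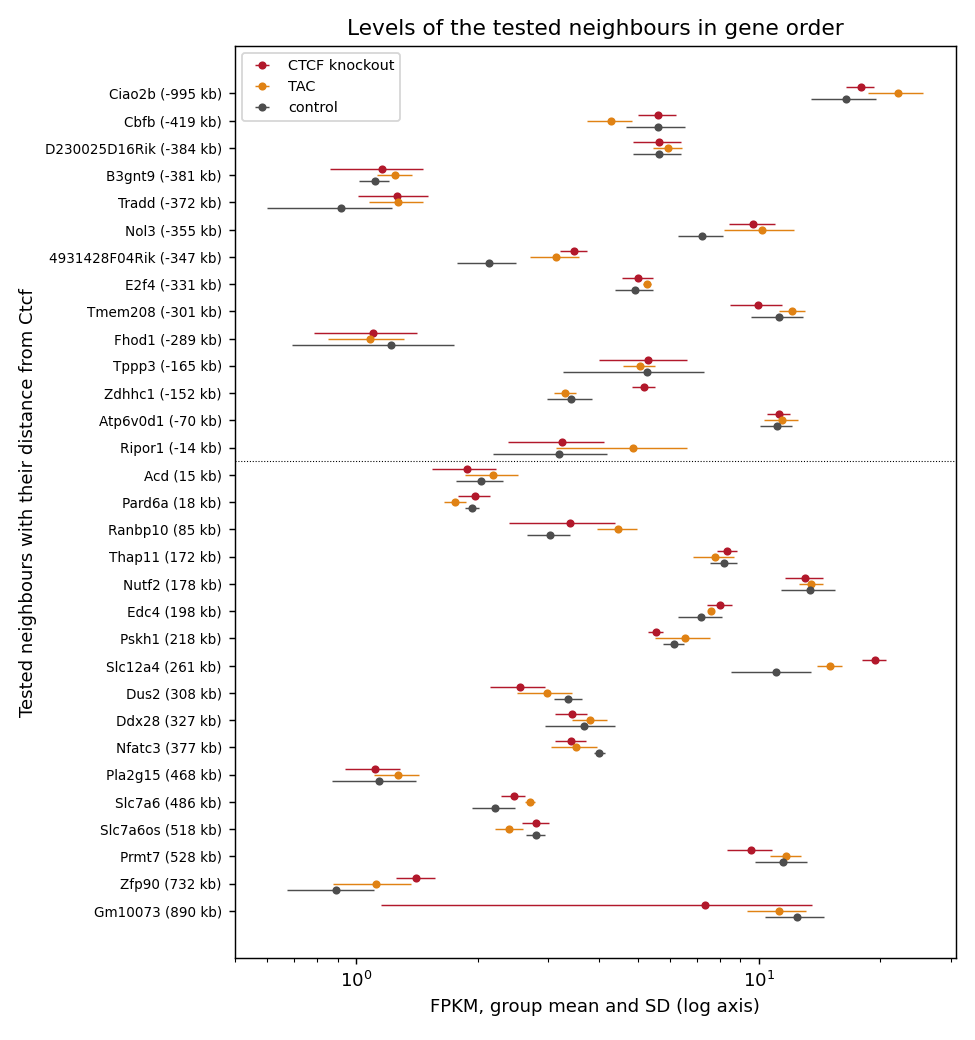
Mean FPKM and SD (log axis) of the 31 tested neighbours in CTCF knockout, TAC and control libraries, ordered along the chromosome with the distance from Ctcf in kb. The dotted line is the place of Ctcf; the 3 groups overlap for most genes, the knockout stands to the right of control for Slc12a4, Zdhhc1 and 4931428F04Rik, and Gm10073 has the widest knockout bar.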

How the data were processed

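Per the submitters' processing notes, reads were processed with TopHat2 2.1.0, Bowtie2, Cufflinks 2.2.1 and Cuffdiff on mm10. The deposited files list an FPKM per transcript, made by the authors, and a Cufflinks score per transcript, which was not used. Per the labels, the molecule is polyA RNA while the protocol removed ribosomal RNA, so the selection of RNA is uncertain.

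FPKM was summed by gene ID, 22 IDs not quantified in some libraries and 7765 with no transcript of 300 nt were set apart, and a median-of-ratios factor of 0.912 to 1.10 was applied to each library. Genes with a mean of at least 1 FPKM (11358) were compared as log2(FPKM + 1) with limma 3.58.1 in R 4.3.3 over all 10 libraries, with a variance trend, two-sided p-values and Benjamini-Hochberg adjustment. Fold changes on this scale understate changes of low genes. The procedure was tested on simulated data. Distances are gaps between gene bodies in the deposited files; gene types are from GENCODE.

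Genes named by rule are those called, the 3 tested genes nearest on each side, the 5 most abundant and those needed for small counts; further members are named as examples of their role group and were picked after their values were seen. The members and lists were chosen with earlier results of these data known. One gene of the window is not reported here.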

Additional observations from a re-analysis of the deposited data

How the results depend on the processing

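Slc12a4, Zdhhc1 and 4931428F04Rik were called higher in the knockout against control in all settings that tested them, with adjusted p by limma of 0.00053 to 0.0105 (21 settings), 0.00332 to 0.0411 (20) and 0.00551 to 0.0459 (20). The count of neighbours called higher there was 5 with no filter on the mean, 5 with no rescaling and 1 at a mean of at least 5 FPKM, and 3 to 5 with a library left out, the 5 being reached without control library 3 (Zfp90 and Gm38250 added) or TAC library 1 (Nol3 and Gm38250 added). With no filter, Carmil2 and Gm38250 were added, and with no rescaling Zfp90 and Gm38250. Gm38250 passed the filter of 1 FPKM whenever a control or TAC library was left out, since its mean rests mostly on the knockout libraries. Its calls in those settings follow from passing the filter in this way and are no separate support. Settings with a minimum of 0.5 FPKM, and those that left libraries out without a filter, were chosen after seeing the data.

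For the knockout against TAC the count was 2 with no filter, a mean of at least 0.5 FPKM or no rescaling, 0 at a mean of at least 5 FPKM, as TPM or with the replicate block, and 0 to 2 with a library left out: 0 without knockout library 1 or 3, 2 without any one control library. Without any one TAC library the count of 1 was Gm38250. For TAC against control it was 0 at a mean of at least 5 or 0.5 FPKM, with quantile normalization, as TPM, with only the 2 groups, with the replicate block or with a term for sex, and 0 to 2 with a library left out: 0 without any one knockout library or TAC library 2 or 3, and 2 without TAC library 1. In place of 4931428F04Rik, the count of 1 was Dpep2 with no filter, Slc12a4 with no rescaling or without control library 1, and Ciao2b without control library 2. The count called lower was 0 throughout, also with a library left out (0 to 0).

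The median log2 fold change of the neighbours in the knockout against control was 0.12 with no rescaling and 0.00 with quantile normalization, and 0.00 to 0.03 with a library left out. Against TAC it was 0.00 with no rescaling and -0.20 as TPM, and -0.08 to -0.04 with a library left out. For TAC against control it was 0.12 with no rescaling and 0.19 as TPM, and 0.05 to 0.09 with a library left out. TPM moved the median of all genes to 0.123 in TAC against control and to -0.135 in the knockout against TAC. The Spearman correlation of size of change with distance was 0.29 at a mean of at least 5 FPKM for the knockout against control (0.04 to 0.34 with a library left out). For the knockout against TAC it was 0.10, and 0.71, 0.01 and 0.18 at a mean of at least 5 FPKM, with no rescaling and with a sex term (0.00 to 0.18 with a library left out). For TAC against control it was 0.27, and 0.57, 0.20, 0.16 and 0.06 at a mean of at least 5 FPKM, with no rescaling, with quantile normalization and as TPM (0.05 to 0.30 with a library left out). The causes were not tested. Correlations between libraries of the same number ran from -0.359 to 0.327, and those between libraries of different numbers from -0.345 to 0.462. They were taken on deviations from means of 3 or 4 libraries, so they cannot tell whether equal numbers mark a shared batch.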

Other observations

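Short RNAs of the window were outside the tests, because FPKM of transcripts under 300 nt is unstable. Of the 9, Gm27320, listed as a microRNA, stood at 71.5 FPKM in 1 knockout library and was listed at 0 in the other 9 libraries. Gm22972, a small nucleolar RNA whose sequence lies within exons of Dpep2, stood at 5.95 FPKM in another knockout library and was likewise listed at 0 in the other 9.

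Hsf4, a heat shock factor gene with a mean of 0.874 FPKM, was at 0.713 to 1.5 FPKM in the knockout, 0.432 to 0.754 FPKM in TAC and 0.655 to 1.07 FPKM in control, with overlap between all groups.

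The isoform makeup of Tradd varied between groups. The transcript with the highest mean FPKM over all libraries was not the largest in every library. It carried 82.9% of the gene's FPKM in the knockout, 75.6% in TAC and 56.2% in control on average. The ranges were 71.5% to 100% in the knockout, 58.6% to 85.1% in TAC and 42.0% to 63.5% in control. Tradd is at about 1 FPKM, and these shares were not tested.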
